A study of Rattus norvegicus with 35 samples.

Results

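The 10 genes described here encode the main membrane transporters of the hepatocyte for bile acids, conjugated metabolites, drugs and phospholipid. They were taken by symbol from the 14217 genes that had a probe set annotated with that symbol alone, and all 10 were measured. Each gene was read at the probe set with the highest mean over the 35 arrays. Livers came from male Harlan Sprague Dawley rats, aged 7 weeks when dosing began, gavaged daily with TBB, the flame retardant 2-ethylhexyl tetrabromobenzoate, in corn oil at 5 ml/kg for 5 days and necropsied 1 day after the last dose. The vehicle group (5 arrays) received corn oil, and 5 groups of 6 arrays received TBB at 550 mg/kg, at 55 mg/kg, or at the lower doses of 5.50, 0.55 and 0.05 mg/kg. Whether every array stands for a different rat is not stated in the labels. The p-values therefore describe spread among arrays, and that spread may be technical.

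A hepatocyte takes up solutes from blood across its basolateral membrane, modifies them, and sends them out either across the canalicular membrane into bile or back across the basolateral membrane into blood. Slc10a1 is the sodium-coupled uptake carrier for conjugated bile acids, and Slco1a1, Slco1a4 and Slco1b2 are organic anion transporting polypeptides of broad substrate range. Abcc3 and Abcc4 are basolateral export pumps for conjugates and bile acids. At the canalicular membrane Abcb11 is the bile salt export pump, Abcc2 exports glutathione and glucuronide conjugates and bilirubin conjugates, Abcb1a is a P-glycoprotein that exports drugs, and Abcb4 moves phosphatidylcholine into bile.

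The expression values are log2 values on a scale where 1 unit is a doubling, so a difference of 2 values is a log2 fold change. The scale does not allow the amount of one transcript to be read against that of another. Percentiles below only place a probe set within the array's signal. Sums over genes and differences between genes are compared only from array to array. The tests are from limma, a linear model fitted over all 31042 probe sets and all 35 arrays, with Benjamini-Hochberg adjustment over all probe sets and adjusted p under 0.05 as the threshold. Cyp1a1, a target of the aryl hydrocarbon receptor, served as a check of dosing: it ranged from 4.23 to 4.71 in vehicle, from 7.89 to 9.67 at 55 mg/kg and from 11.46 to 12.32 at 550 mg/kg. RNA quality was read from 3' minus 5' signal on the array's controls for beta-actin, hexokinase and GAPDH. Exact permutation tests gave p = 0.45, 0.55 and 0.63 in that order for 550 mg/kg (n = 6) against vehicle (n = 5). Of 8 listed hepatocyte markers 7 were measured, every one at or above percentile 99.8 of all probe sets in vehicle. Their summed linear level ranged from 109649 to 111530 in vehicle and from 105197 to 110402 at 550 mg/kg, and none of the 7 passed. Of them 5 had a negative and 2 a positive difference at 550 mg/kg, with a median of -0.068. Ttr (-0.073) and Serpina1 (-0.077) lay below every vehicle array, where groups did not overlap for 1.34% of all probe sets. These are bulk liver samples, in which fewer cells of a type and less RNA per cell cannot be told apart.

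At 550 mg/kg the basolateral export pump Abcc3 rose about 2.08-fold and the uptake transporter Slco1a4 fell to 0.812 of its vehicle level, while the other 8 transporters did not pass. In this comparison 155 of all 31042 probe sets passed, or 0.499%, beside 1 of the 10 members higher and 1 lower. Of all probe sets 0.354% were higher and 0.145% lower. Of the 10 members, 9 had a negative difference and the median was -0.11, while the median over all probe sets was 0.0024. This sign count is not particular to the members. All 5 endothelial, all 3 Kupffer cell and 4 of 5 stellate markers measured also had a negative difference. Other transporter genes (12 negative, 11 positive) and regulators and anchors of transporters (4 negative, 10 positive) were more even or mostly positive. At an unadjusted p under 0.05 there were 4 members, Abcc3, Slco1a4, Abcc2 and Abcb4, against 8.67% of all probe sets.

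**Figure D1:**
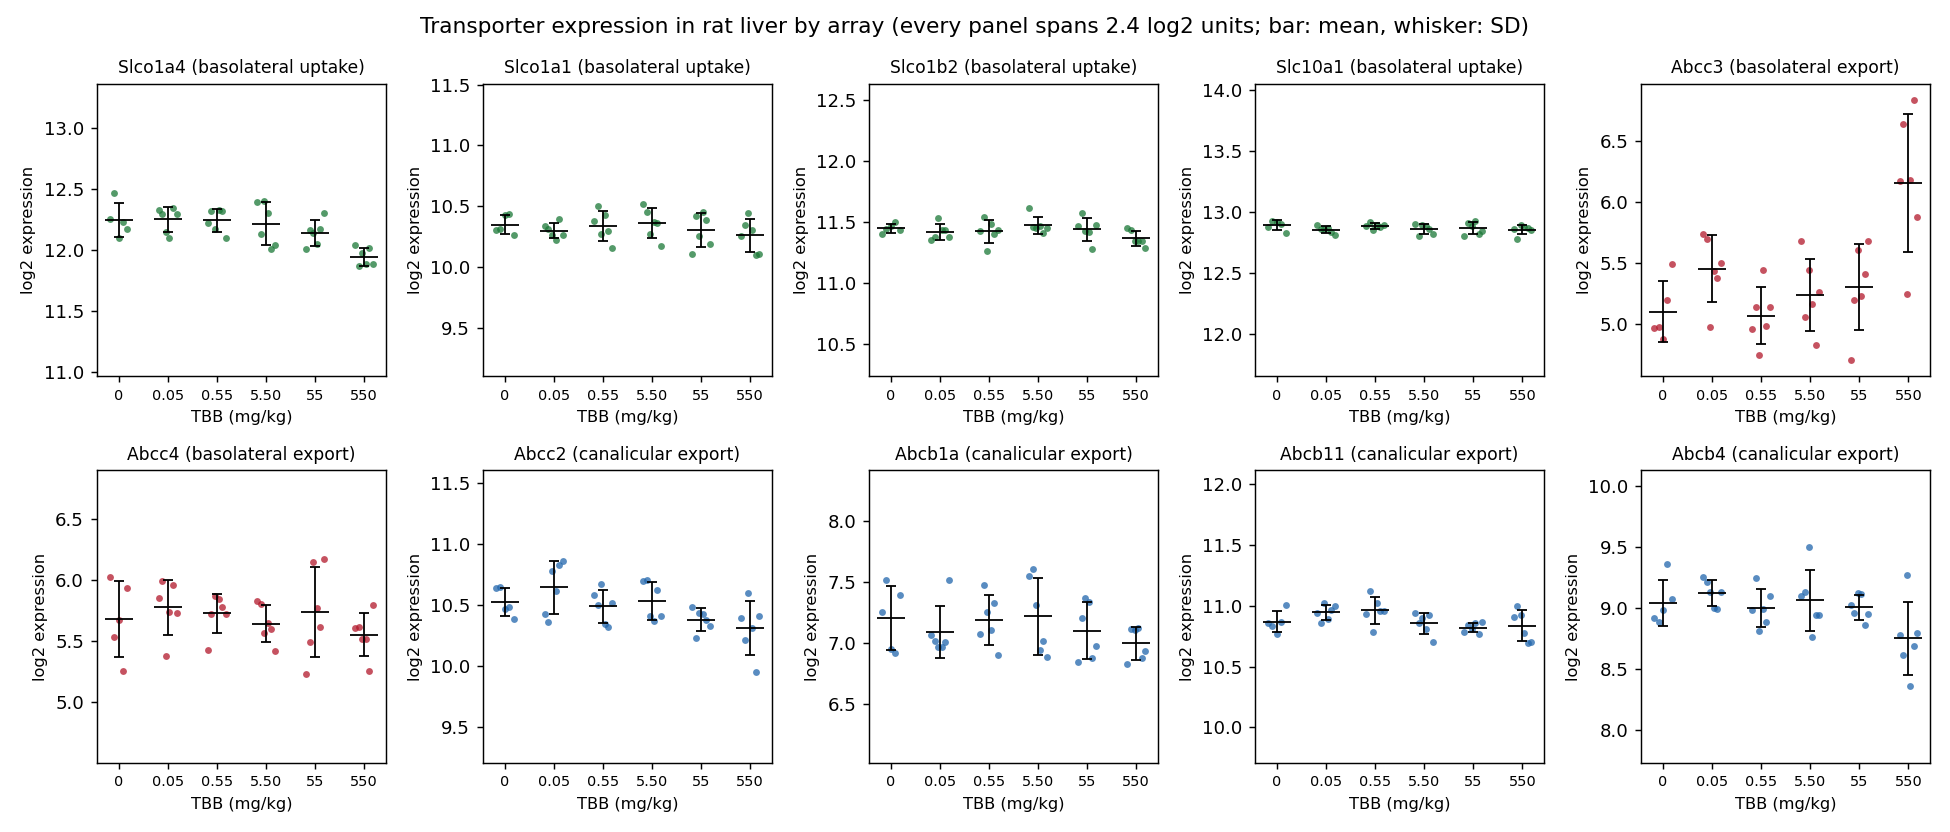
Log2 expression (vertical axis, 2.4 log2 units in every panel) of the 10 transporter genes in each array against the TBB dose in mg/kg, with 0 for vehicle; each point is 1 array, bars are group means and whiskers SD. Abcc3 stands higher at 550 mg/kg, from 5.25 to 6.84, and Slco1a4 lower, from 11.87 to 12.04, while Slc10a1 keeps within 12.78 and 12.93 over all 35 arrays.

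Abcc3 gave vehicle values of 4.97, 4.98, 4.88, 5.20 and 5.49 in replicates 1 to 5 (5.10 ± 0.25, SD, n = 5). At 550 mg/kg its values were 6.18, 6.64, 5.25, 6.18, 6.84 and 5.88 in replicates 1 to 6 (6.16 ± 0.57, SD, n = 6). Replicate 3 lay inside the vehicle range and the other 5 above it, so the groups overlapped through that 1 array. The difference was 1.06 ± 0.20 (SE; 95% interval 0.65 to 1.46; adjusted p = 0.0047), and all 6 arrays lay above the vehicle mean. In linear terms the interval ran from 1.57-fold to 2.76-fold. Without replicate 3 of 550 mg/kg the difference was 1.24. Abcc3 stood at percentile 49.8 of all probe sets in vehicle, and its vehicle mean of 5.10 lay among the array medians of 5.09 to 5.16. Whether the signal of Abcc3 or of Abcc4 stood above the array's background was not tested. Fitting only the vehicle and 550 mg/kg arrays ended the call (adjusted p = 0.11), and the adjusted p ranged from 1.1e-04 to 0.11 over the alternatives.

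Abcc4, the other basolateral pump, was read at percentile 57.5 and did not pass at 550 mg/kg. Its vehicle values were 6.03, 5.53, 5.67, 5.25 and 5.93, and at 550 mg/kg it ran from 5.26 through a median of 5.56 to 5.80, wholly within the vehicle range. The difference was -0.13 ± 0.14 (95% interval -0.42 to 0.15; adjusted p = 0.86). In linear terms the interval runs from 0.748 to 1.11 of the vehicle level, which does not include the ratio seen for Abcc3.

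Among the uptake transporters, 1 of 4 fell at 550 mg/kg and none rose, with a median difference of -0.086. Slco1a4, a carrier of organic anions and cardiac glycosides, gave 12.26, 12.47, 12.10, 12.23 and 12.18 in vehicle and 12.04, 11.87, 11.98, 11.88, 12.02 and 11.89 at 550 mg/kg. Every 550 mg/kg array lay below every vehicle array, the 1 case among the 10 members in which the groups did not overlap; over all probe sets 1.34% did not overlap. The difference was -0.30 ± 0.07 (95% interval -0.45 to -0.15; adjusted p = 0.049). The second probe set of the gene gave the same size, -0.30 ± 0.09, from 10.66 ± 0.15 (SD, n = 5) to 10.36 ± 0.13 (SD, n = 6), again with no overlap, and did not pass (adjusted p = 0.20). The call of the main probe set is thin: it was lost when any 1 array other than vehicle replicate 3 was left out, in 10 of 11 cases, with differences from -0.34 to -0.25 and adjusted p up to 0.16. It was also lost with only the 2 groups fitted (adjusted p = 0.15).

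The related genes on the same chromosome showed smaller differences. Slco1a1, a carrier of bile acids and sulfated steroids, gave 10.31, 10.31, 10.43, 10.43 and 10.26 in vehicle and ran from 10.10 through 10.28 to 10.45 at 550 mg/kg. The ranges overlapped and the difference was -0.089 ± 0.071 (95% interval -0.23 to 0.056; adjusted p = 0.80). Slco1b2, the rodent relative of the human liver-specific carriers SLCO1B1 and SLCO1B3, gave 11.40, 11.45, 11.47, 11.50 and 11.43 in vehicle and ran from 11.29 through 11.35 to 11.45 at 550 mg/kg. Its difference was -0.083 ± 0.052 (95% interval -0.19 to 0.022; adjusted p = 0.71). The second probe set of Slco1b2 gave 0.019 ± 0.092 (adjusted p = 0.98), so its 2 probe sets differed in sign without either passing.

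The start-site regions of these 3 neighbours are shown because they set the gene that fell beside the 2 that did not pass. The RefSeq start-site windows used here (GRCr8 assembly) were matched for 8 of the 10 members; those of Abcc3 and Abcb11 were not analysed here. Each window runs from 250 bases before the start of the gene to 50 after it, 5′ to 3′ on the strand of the gene: Slco1a4 at chr4:176495797-176496096 (minus strand), Slco1a1 at chr4:176681943-176682242 (minus strand) and Slco1b2 at chr4:176282334-176282633 (plus strand). Capitals mark matches, on either strand, to GCGTG (the core bound by the aryl hydrocarbon receptor), TGACNNNGC (the core of the antioxidant response element), AGGTCA (a nuclear receptor half-site) and GTTAAT (part of the site of the hepatocyte factor HNF1).
Slco1a4: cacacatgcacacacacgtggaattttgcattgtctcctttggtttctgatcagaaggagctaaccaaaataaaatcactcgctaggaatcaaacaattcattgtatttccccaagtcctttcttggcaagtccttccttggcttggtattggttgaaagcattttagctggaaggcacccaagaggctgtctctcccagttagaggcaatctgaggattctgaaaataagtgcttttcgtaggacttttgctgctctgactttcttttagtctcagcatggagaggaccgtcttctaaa
Slco1a1: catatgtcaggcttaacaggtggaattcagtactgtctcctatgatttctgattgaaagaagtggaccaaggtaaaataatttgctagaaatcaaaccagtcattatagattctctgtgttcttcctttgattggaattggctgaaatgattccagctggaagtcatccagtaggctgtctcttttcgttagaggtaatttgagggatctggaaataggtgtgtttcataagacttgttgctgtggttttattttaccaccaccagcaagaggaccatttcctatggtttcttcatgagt
Slco1b2: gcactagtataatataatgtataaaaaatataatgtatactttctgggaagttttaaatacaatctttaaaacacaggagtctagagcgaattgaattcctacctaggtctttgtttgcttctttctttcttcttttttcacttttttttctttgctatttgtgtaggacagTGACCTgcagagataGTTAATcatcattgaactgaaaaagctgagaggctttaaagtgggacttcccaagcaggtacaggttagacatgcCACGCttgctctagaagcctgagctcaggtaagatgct
None of the 4 motifs was found in the windows of Slco1a4 and Slco1a1, and Slco1b2 held 3 of them, which says only which letters lie in these windows. The windows of Slco1a4 and Slco1a1 were identical at 213 of 319 columns of a global alignment (66.8%), against 51.4% for Slco1a4 and Slco1b2. Over the 8 members with a window, GCGTG was found in 3 (Slco1b2, Abcc4 and Abcb4), TGACNNNGC in 1 (Abcc2), AGGTCA in 3 and GTTAAT in 3 (Abcc2, Slco1b2 and Slc10a1 for both). Of 33465 windows of the same length, 29.7%, 12.1%, 16.2% and 7.44% held these motifs, and in the members no match of one motif overlapped a match of another.

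Slc10a1, the bile acid uptake carrier known as NTCP, was the most even member by group SD, which ran from 0.021 to 0.050. It also had the highest vehicle percentile of the members, 99.6, and the part of signal level in this evenness was not tested. Its vehicle values were 12.88, 12.93, 12.92, 12.90 and 12.83, and at 550 mg/kg it ran from 12.78 through 12.86 to 12.89. The difference was -0.037 ± 0.037 (adjusted p = 0.85), with 6 of 6 arrays below the vehicle mean. The lowest dose, 0.05 mg/kg, gave the same difference and placement, -0.037 ± 0.037 with 6 of 6 arrays below (adjusted p = 0.92). At 550 mg/kg the 95% interval in linear terms was 0.926 to 1.03 of the vehicle level.

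None of the 4 canalicular pumps passed at 550 mg/kg in limma. Of the 4, 2 had an unadjusted p under 0.05, against 8.67% of all probe sets. All 4 had a negative difference, with a median of -0.21, where 9 of all 10 members were negative. Abcb4, the phospholipid translocator, gave 8.92, 8.88, 8.99, 9.36 and 9.07 in vehicle and 8.78, 8.62, 9.27, 8.36, 8.69 and 8.80 at 550 mg/kg. All but replicate 3 of the treated arrays lay below the whole vehicle range. The difference was -0.29 ± 0.12, as large as that of Slco1a4 but with a wider spread (95% interval -0.53 to -0.059; adjusted p = 0.40). Without replicate 3 of 550 mg/kg it was -0.40.

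Abcc2, the conjugate export pump also known as MRP2, gave 10.64, 10.65, 10.47, 10.48 and 10.38 in vehicle and ran from 9.94 through 10.35 to 10.60 at 550 mg/kg. The ranges overlapped, and the difference was -0.22 ± 0.10 (95% interval -0.41 to -0.018; adjusted p = 0.51). Abcb1a differed by -0.21 ± 0.13 (adjusted p = 0.72) on its main probe set and by -0.21 ± 0.14 on its second, from 7.21 ± 0.27 (SD, n = 5) to 7.00 ± 0.13 (SD, n = 6) on the main one. A further probe set annotated to both Abcb1a and its close copy Abcb1b was not used, and signal from Abcb1b on the Abcb1a probe sets was not tested. Abcb11, the bile salt export pump, gave 10.86, 10.83, 10.77, 10.86 and 11.01 in vehicle and ran from 10.70 through a median of 10.84 to just under the vehicle maximum at 550 mg/kg. Its difference was -0.032 ± 0.059 (95% interval -0.15 to 0.088; adjusted p = 0.93), a linear ratio between 0.900 and 1.06 of the vehicle level.

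**Figure D2:**
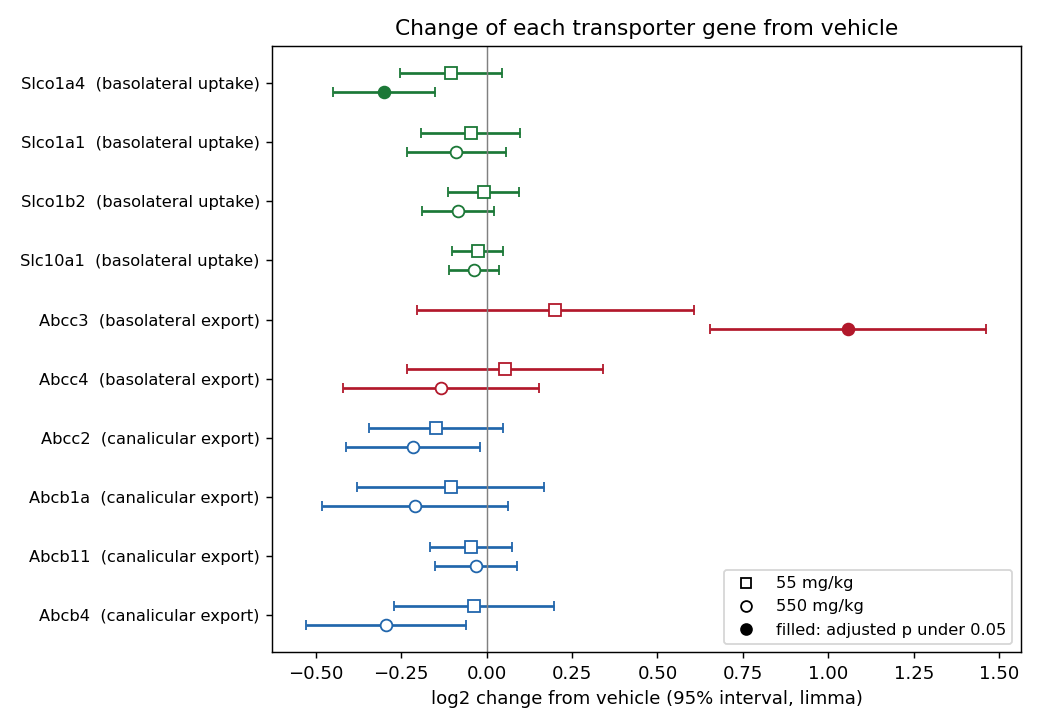
Log2 change from vehicle (horizontal axis) of each of the 10 transporter genes at 55 mg/kg (squares) and 550 mg/kg (circles), with 95% intervals from limma and filled symbols for adjusted p under 0.05. Filled symbols stand at 550 mg/kg for Abcc3 (1.06) and Slco1a4 (-0.30); the 4 canalicular genes lie between -0.29 and -0.03 at that dose.

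At 0.05, 0.55, 5.50 and 55 mg/kg none of the 10 members passed against vehicle in limma, and none had an unadjusted p under 0.05 at any of these doses. Over all probe sets 0%, 0%, 0% and 0.00644% passed, and 6.05%, 3.86%, 4.95% and 4.20% had an unadjusted p under 0.05. Abcc3 had group means of 5.46 ± 0.28, 5.07 ± 0.23, 5.24 ± 0.30 and 5.30 ± 0.35 at these doses (SD, n = 6 each), beside 5.10 in vehicle. Among these 4 doses the highest mean was that of the lowest dose, 0.05 mg/kg. Slco1a4 had means of 12.25 ± 0.10, 12.25 ± 0.10, 12.22 ± 0.18 and 12.14 ± 0.10 (SD, n = 6 each), beside 12.25 in vehicle.

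At 55 mg/kg, where Cyp1a1 had risen by 4.26, the differences of the 10 members ran from -0.15 for Abcc2 to 0.20 for Abcc3, and 8 were negative. Abcc2 differed by -0.15 ± 0.10 (95% interval -0.35 to 0.049), with all 6 arrays below the vehicle mean. Abcc3 differed by 0.20 ± 0.20 (95% interval -0.20 to 0.61). Both had adjusted p = 1.0.

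Between 550 and 55 mg/kg, Abcc3 rose by 0.86 ± 0.19 (95% interval 0.47 to 1.24; adjusted p = 0.020), the single call among the 10 members, where 0.686% of all probe sets passed and 0.577% were higher. At an unadjusted p under 0.05 there were 3 members (Abcc3, Slco1a4 and Abcb4), against 9.43% of all probe sets. No member's groups were free of overlap here, against 1.15% of all probe sets. Its 55 mg/kg values ran from 4.71 through 5.32 to 5.68, so 5 of the 6 arrays at 550 mg/kg lay above all of them. The call was lost without 55 mg/kg replicate 1 (0.74, adjusted p = 0.079), 550 mg/kg replicate 2 (0.76, adjusted p = 0.069) or 550 mg/kg replicate 5 (0.72, adjusted p = 0.068). Slco1a4 differed by -0.20 ± 0.07 between these doses (adjusted p = 0.27) and Abcb4 by -0.26 ± 0.11 (adjusted p = 0.42).

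A straight slope over dose rank, from 0 for vehicle to 5 for 550 mg/kg, called none of the 10 members, where 0.171% of all probe sets passed and 0.0741% had a falling slope that passed, although 4 members had an unadjusted p under 0.05 against 9.42% of all probe sets. Per step of rank Slco1a4 changed by -0.055 ± 0.013 (adjusted p = 0.056), Abcc2 by -0.054 ± 0.016 (adjusted p = 0.16), Abcb4 by -0.052 ± 0.020 (adjusted p = 0.34) and Abcc3 by 0.15 ± 0.04 (adjusted p = 0.13). Slco1a4 passed under 7 of 11 alternative settings, among them cyclic loess between arrays and leaving out the dimmest probe sets. The looser threshold of adjusted p under 0.10 is also counted among the 7. Its second probe set did not pass in limma (-0.055 ± 0.016, adjusted p = 0.14).

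The 3 membrane classes were set side by side by averaging, in each array, the difference of each member from its vehicle mean. Basolateral uptake ran from -0.058 to 0.054 in the vehicle arrays and from -0.20 to -0.071 at 550 mg/kg, with a mean of -0.13 ± 0.05 (SD, n = 6). These ranges did not overlap, but Slco1a4 was the 1 gene of the 4 that did not overlap by itself. How often means over 4 other genes do not overlap was not tested. Canalicular export ran from -0.12 to 0.060 in vehicle and from -0.36 to 0.064 at 550 mg/kg, with a mean of -0.19 ± 0.14. Basolateral export ran from -0.17 to 0.32 in vehicle and from -0.011 to 0.73 at 550 mg/kg, with a mean of 0.46 ± 0.26, which averages a gene that rose and one that did not pass. At 55 mg/kg the means were -0.047 ± 0.057, -0.084 ± 0.088 and 0.13 ± 0.36 for uptake, canalicular and basolateral export. The uptake mean at 550 mg/kg owes most to Slco1a4, since the other 3 uptake genes differed by -0.089, -0.083 and -0.037.

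**Figure D3:**
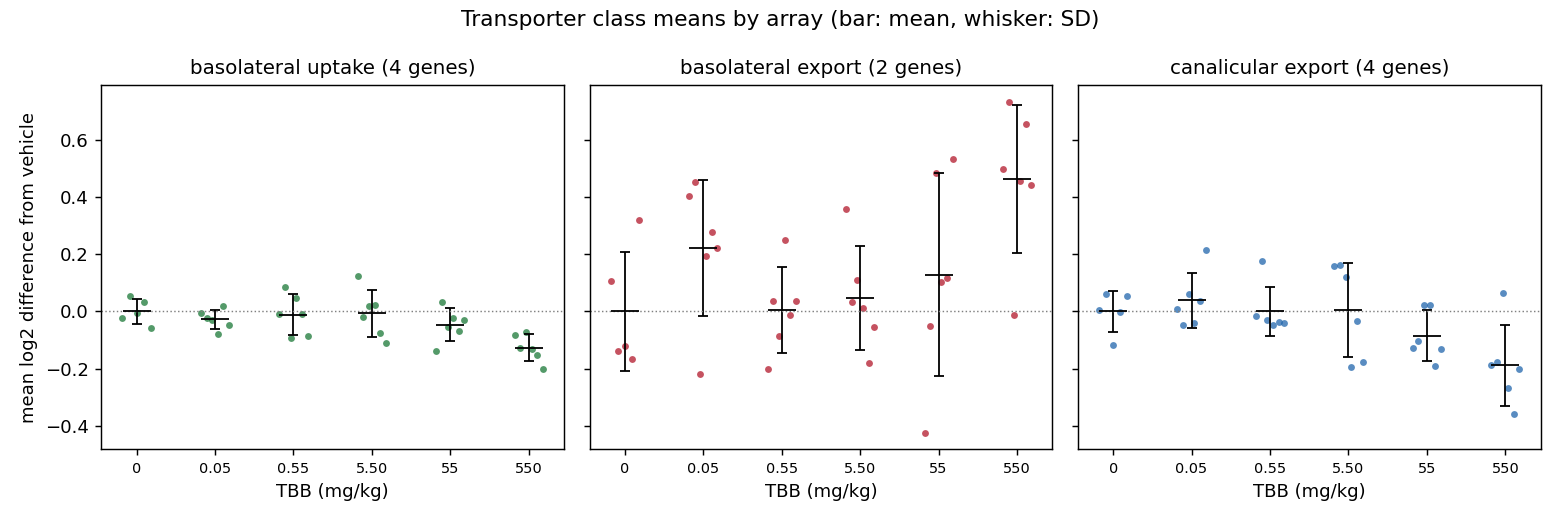
Mean log2 difference from vehicle (vertical axis) over the genes of each membrane class in each array against the TBB dose in mg/kg, with 0 for vehicle; points are arrays, bars group means and whiskers SD. At 550 mg/kg the basolateral uptake arrays lie between -0.20 and -0.071, the canalicular ones between -0.36 and 0.064 and the basolateral export ones between -0.011 and 0.73.

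Whether transporters changed unequally was tested on 4 pairs within the same arrays, at 55 and at 550 mg/kg against vehicle, with exact two-sided permutation tests adjusted over the 8 tests; the smallest p that 6 against 5 arrays allow is 0.0022. The log2 difference of Abcc3 over Abcc2, basolateral against canalicular export of conjugates, moved by 1.27 at 550 mg/kg, with 6 of 6 arrays above the vehicle mean (exact p = 0.011, adjusted p = 0.029). Abcc3 over Abcc4 moved by 1.19, again in 6 of 6 arrays (exact p = 0.0087, adjusted p = 0.029). Slco1a4 over Slco1b2 moved by -0.22, with 6 of 6 arrays below the vehicle mean (exact p = 0.0043, adjusted p = 0.029). Slc10a1 over Abcb11, the uptake carrier and the export pump for bile acids, moved by -0.0049, with 3 of 6 arrays on either side (exact p = 0.97, adjusted p = 0.97), and ran from 1.78 to 2.17 at 550 mg/kg against 1.82 to 2.15 in vehicle.

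At 55 mg/kg none of the 4 pairs passed, with exact permutation p values of 0.15, 0.40, 0.30 and 0.79 in the same order and none under 0.05 before adjustment. Each of the 3 calls at 550 mg/kg involved Abcc3 or Slco1a4, members already called from the same arrays. The pairs were chosen with earlier results known, so they largely restate those differences and are no separate evidence. The 3 calls were also sensitive to single arrays. That of Abcc3 over Abcc2 was lost in 10 of 11 cases with 1 array left out, all but 550 mg/kg replicate 3. That of Abcc3 over Abcc4 was lost in 9, all but vehicle replicate 4 and 550 mg/kg replicate 3, and that of Slco1a4 over Slco1b2 in 8, all but vehicle replicates 3 and 4 and 550 mg/kg replicate 3. Their highest adjusted p was 0.076 in these cases, from exact permutation tests. The 8 tests were adjusted together each time an array was left out, so these losses are not separate measures of each pair.

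**Figure D4:**
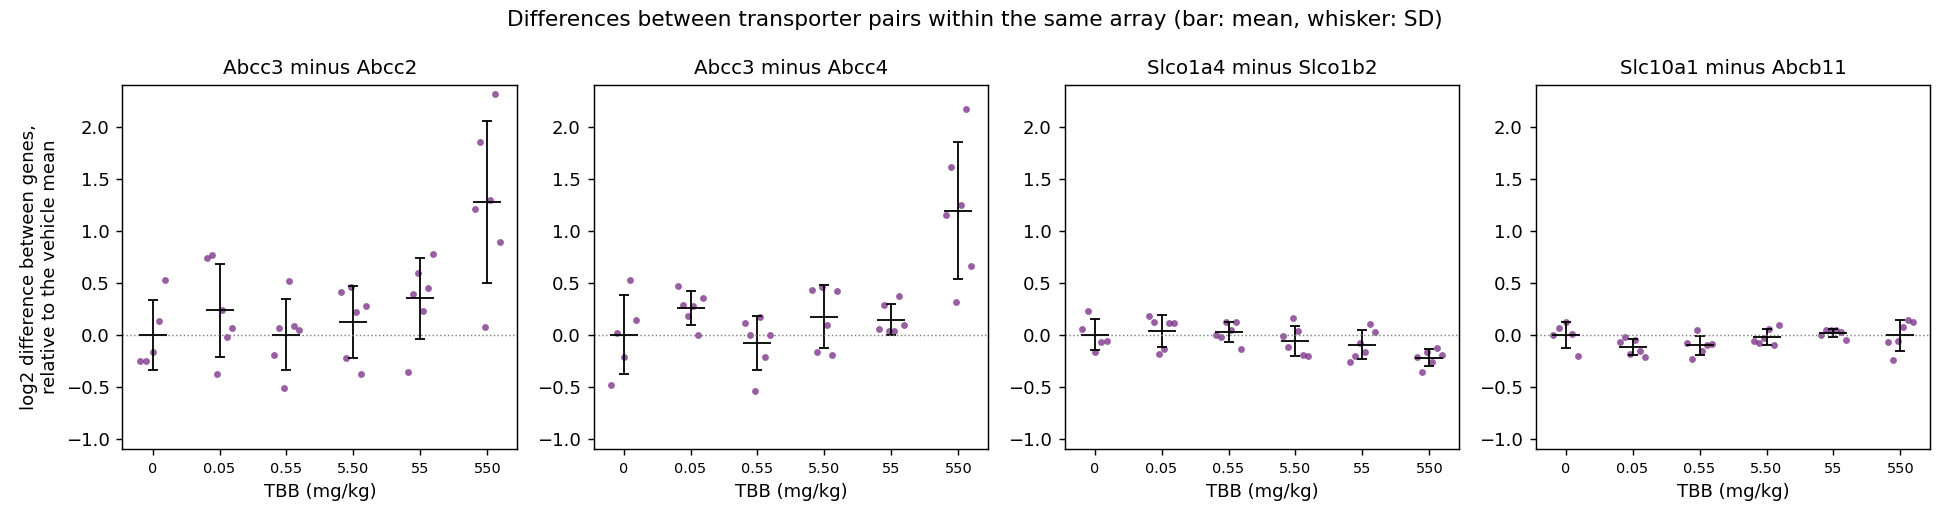
Log2 difference between 2 transporter genes in the same array, relative to its vehicle mean (vertical axis), against the TBB dose in mg/kg, with 0 for vehicle; points are arrays, bars group means and whiskers SD. At 550 mg/kg the mean stands at 1.27 for Abcc3 minus Abcc2, 1.19 for Abcc3 minus Abcc4, -0.22 for Slco1a4 minus Slco1b2 and -0.0049 for Slc10a1 minus Abcb11.

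Within the 550 mg/kg group, 2 arrays took the extremes of several members. Replicate 3 had the lowest Abcc3 value (5.25) and the highest values of 4 members: Slco1a1 (10.45), Slc10a1 (12.89), Abcc2 (10.60) and Abcb4 (9.27). Replicate 5 had the highest Abcc3 value (6.84) and the lowest values of 4 members: Slco1a1 (10.10), Abcc4 (5.26), Abcc2 (9.94) and Abcb11 (10.70). Nqo1, a quinone oxidoreductase and target of the oxidative stress factor NRF2, was also lowest in replicate 3, at 8.53 in a group that reached 9.68 and against at most 7.77 in vehicle. Cyp1a1 was lowest in replicate 5 (11.46) and stood at 11.70 in replicate 3. The part of these arrays' overall state in the transporter values was not tested.

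Of 26 other transporter genes of liver and related tissues, 23 had a probe set of their own. None of these passed at 550 mg/kg in limma. At an unadjusted p under 0.05 there were 4, against 8.67% of all probe sets. The median difference was -0.0068, with 11 positive and 12 negative differences. In the uptake class the smallest p was that of Slc16a1, the monocarboxylate carrier MCT1, at -0.37 ± 0.11 (adjusted p = 0.17). All 5 measured genes of other basolateral export had a positive difference at each of the 5 doses against the shared vehicle group, and none passed. Their median was 0.10 at 0.05 mg/kg, 0.10 at 0.55 mg/kg, 0.053 at 5.50 mg/kg, 0.051 at 55 mg/kg and 0.081 at 550 mg/kg, so it did not increase with dose. The smallest p at 550 mg/kg was that of Abca1, which exports cholesterol to apolipoprotein A-I, at 0.45 ± 0.24 (adjusted p = 0.64). Of 6 other canalicular transporters 5 had a negative difference. Abcg8, which pairs with Abcg5 to move sterols into bile, had the smallest p with -0.74 ± 0.29 (adjusted p = 0.40). Its partner Abcg5 differed by -0.57 ± 0.30 (adjusted p = 0.61).

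Of 15 listed regulators and anchors of transporters 14 were measured, and none passed at 550 mg/kg in limma, with a median of 0.050. At an unadjusted p under 0.05 there was 1, against 8.67% of all probe sets. That gene was Rxra, the shared partner of the nuclear receptors for bile acids, drugs and fatty acids, at 0.24 ± 0.09 (adjusted p = 0.40). The transcripts of the drug receptors Nr1i2 (PXR) and Nr1i3 (CAR) differed by 0.10 ± 0.09 and 0.11 ± 0.20, and that of the bile acid receptor Nr1h4 (FXR) by 0.060 ± 0.143. At 55 mg/kg none of the 23 other transporters or 14 regulators passed or had an unadjusted p under 0.05.

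The genes whose 5 dose differences from vehicle lay nearest to those of each called member were found among 14216 others by root mean square difference. For Abcc3 they were Ehhadh (0.10), Eci1 (0.12) and Acot2 (0.12), enzymes of fatty acid oxidation and acyl-CoA hydrolysis, which differed at 550 mg/kg by 1.07, 0.96 and 1.06. For Slco1a4 they were Pth1r (0.024), Minpp1 (0.028) and Pigc (0.031), which differed by -0.28, -0.27 and -0.26. In limma at 550 mg/kg Ehhadh, Eci1 and Acot2 all passed. Of the genes near Slco1a4, Minpp1 passed (adjusted p = 0.018), while Pth1r (0.25) and Pigc (0.055) did not. These likenesses are descriptions over 5 differences that share 1 vehicle group.

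Markers of other liver cells were read beside these results. At 550 mg/kg against vehicle no marker passed among 5 of 6 listed cholangiocyte, 3 of 5 Kupffer cell, 5 of 5 endothelial, 5 of 5 stellate, 3 of 3 red blood cell and 3 of 4 lymphocyte markers that were measured. The summed linear level of the red blood cell markers ranged from 4173 to 5967 in vehicle and from 3035 to 4609 at 550 mg/kg, with a median difference of -0.46 on the log2 scale. That of the Kupffer cell markers ranged from 1674 to 1980 in vehicle and from 1121 to 1951 at 550 mg/kg. The cholangiocyte sums were 588 to 782 and 569 to 668, and the endothelial ones 2298 to 2573 and 2123 to 2440. The part of these cells in the transporter differences was not tested.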

How the data were processed

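Liver RNA was hybridised to single-colour Affymetrix 3' arrays. The authors deposited 1 log2 value for each probe set and array. The submitters' processing notes name RMA and affy. Versions, chip definition and filters: not given in the sources used here. Array medians lie between 5.09 and 5.16, as quantile normalization leaves them, and a shift common to most transcripts would be hidden.

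Of 31099 probe sets, 57 Affymetrix controls were left out. The platform annotation gave 20826 probe sets 1 symbol, 436 several and 9780 none listed; 20758 matched the GRCr8 gene table by Entrez identifier. Probe sets with several symbols named no gene.

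The design text compares each dose with vehicle at a false discovery rate under 5%. Here limma 3.58.1 (lmFit, contrasts, eBayes) in R 4.3.3 was fitted over all 35 arrays with 1 mean per group, checked on simulated data. Standard errors and 95% intervals are moderated. Pair differences used exact permutation tests. For arrays, their number limits the precision. Promoters were aligned with Biopython 1.88, files read with the data.table package, version 1.17.8, and figures drawn with Python 3.11.15 and matplotlib 3.10.9.

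The members, gene lists and tests were chosen with earlier results of these data known. All 10 members are named whatever their values. Of the other lists, genes past the threshold at 55 or 550 mg/kg, or otherwise the one with the smallest p in each class at 550 mg/kg, are named. Abcg5, Nr1i2, Nr1i3, Nr1h4, Ttr and Serpina1 were chosen after their values were seen. Alternatives were a filter on dim probe sets, array medians, cyclic loess, trend and robust eBayes, no moderation, 2 groups only, array weights, a replicate block, each array left out, other probe set choices and other thresholds.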

Additional observations from a re-analysis of the deposited data

Results flagged for a closer look

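In each of 60 combinations of a transporter gene and a dose group, the array farthest from the others was compared with the spread of its group by Dixon's ratio, which chance passes in about 1 of 20 groups; 4 passed. Slco1b2 was high in 5.50 mg/kg replicate 1, at 11.61 beside 11.47 for the nearest array. Slc10a1 was low in 550 mg/kg replicate 2, at 12.78 beside 12.85. Abcc4 was low in 0.55 mg/kg replicate 1, at 5.42 beside 5.72. Abcb1a was high in 0.05 mg/kg replicate 6, at 7.52 beside 7.07.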

How the results depend on the processing

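No value changed direction with a call on either side; of 431 recomputed values that did not pass, 15 turned sign without passing. The count of 2 transporter genes called at 550 mg/kg against vehicle was 0 with only the 2 groups fitted, and 1 with the replicate block, with the next highest probe set of a member and with a change of at least 1.5-fold; it ranged from 1 to 2 with single arrays left out. The count of 1 between 550 and 55 mg/kg was 0 with only the 2 groups fitted and ranged from 0 to 1 with single arrays left out. For the slope over dose rank, which called 0, Slco1a4 made the count 1 without the 40% dimmest probe sets, with array medians subtracted, with cyclic loess, with trend and robust eBayes, with array weights, with 1 probe set per gene and at adjusted p under 0.10; it ranged from 0 to 1 with single arrays left out, the call coming without vehicle replicate 3 or 5. At 0.05, 0.55, 5.50 and 55 mg/kg the count was 0 in every alternative run.

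Replicate numbers shared across groups showed no clear pairing of the arrays. Deviations of same-numbered arrays correlated between -0.31 and 0.27, with a median of -0.0092, against a median of -9.7e-04 for different numbers. Of 35 arrays 4 correlated best with an array of their own number. Correlations over all probe sets are a weak check and cannot exclude pairing or a shared batch. With the replicate block the pair differences at 550 mg/kg were 1.35 for Abcc3 minus Abcc2, 1.30 for Abcc3 minus Abcc4 and -0.22 for Slco1a4 minus Slco1b2, none of which passed (linear model in place of the permutation test). With single arrays left out the first ranged from 1.07 to 1.51, the second between 1.00 and 1.37, and the third between -0.26 and -0.16.

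The array-wide count of 155 at 550 mg/kg was 41 with only the 2 groups fitted, 37 at 1.5-fold, 252 at adjusted p under 0.10, 82 without vehicle replicate 1, 77 without vehicle replicate 3 and 88 without 550 mg/kg replicate 2. That of 213 between 550 and 55 mg/kg was 76, 38 and 374 under these settings, 327 with array weights 123 without 55 mg/kg replicate 1 and 137 without 55 mg/kg replicate 4. That of 53 for the slope ranged from 1 to 171. The cause of these shifts was not tested. The 2-group fits use fewer arrays and estimate spread from those 2 groups alone. The number of arrays limits the precision.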
